A study of Mus musculus with 9 samples.

Results

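The genes that set the G1 switch of the cell cycle were examined: the D-type cyclins Ccnd1, Ccnd2 and Ccnd3, their kinase partners Cdk4 and Cdk6, the CDK inhibitors Cdkn1b, Cdkn1c, Cdkn2b and Cdkn2c, and the target Rb1. Their rows were found by gene symbol, as 10 of the 46517 genes in each table, and all 10 passed the filter on low counts in every comparison. The samples were 9 cultures of duodenal organoids from wild-type C57BL/6J mice, 3 each transduced with Ad-GFP, Ad-hHIF2 or Ad-hHIF1, and the comparison asks how each HIF changes transcript levels relative to the control virus. Ad-GFP carries only green fluorescent protein. Ad-hHIF1 and Ad-hHIF2 carry human HIF1 and HIF2 with proline-to-alanine changes that keep VHL from marking them for degradation, so the proteins are stable with oxygen present.

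All groups shared the culture conditions. Crypt cells were transduced as single cells at 50 particles per cell, grown in L-WRN medium (a source of Wnt3a, R-spondin 3 and noggin) at 5% oxygen, with a ROCK inhibitor and the TGF-β receptor kinase inhibitor SB431542, and RNA was taken about 72 hours later. Each group is therefore a transient viral overexpression and not a germline model. The sources name the 3 samples of a group (numbered 1, 3 and 4) biological replicates without tying them to animals, so p-values measure the spread between these cultures.

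D-type cyclins are made when growth signals such as Wnt reach a cell. They bind CDK4 or CDK6, and the active kinase phosphorylates the retinoblastoma protein, which then releases E2F factors that switch on genes for DNA replication. INK4 proteins (here Cdkn2b, p15, and Cdkn2c, p18) bind CDK4 and CDK6 directly and block them, while the CIP/KIP proteins (Cdkn1b, p27, and Cdkn1c, p57) act mainly on the cyclin E and cyclin A kinases. In the intestinal crypt this switch governs how fast stem and progenitor cells divide.

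Sequencing depth ran from 21722618 to 51119041 expected counts per sample, which limits precision for the rarest gene, Cdkn1c (26 to 71 counts per sample), far more than for Ccnd2 (2490 to 21619). Epas1, the mouse gene for HIF2α, was at 604.3 to 757.5 CPM (reads per library size, TMM-normalised) in the Ad-hHIF2 samples and at most 3.07 elsewhere. Human transgene reads could enter these tables only where RSEM gave them to the mouse gene. Hif1a was at 299.3 to 319.2 CPM in the Ad-hHIF1 samples and at most 251.2 elsewhere. Of the 6 epithelial markers, Krt8, Krt18 and Cdh1 were at 204 CPM or more in every sample, whereas Epcam, Vil1 and Cldn7 were between 1.31 and 4.94. The stem cell markers Lgr5, Olfm4, Ascl2 and Smoc2 and the enterocyte markers Alpi, Fabp1, Apoa1 and Sis stayed at or below 1.19 CPM, so the defining markers of intestinal stem cells and enterocytes were near 0 in these libraries. No marker of mesenchyme, immune cells or endothelium exceeded 6.83 CPM in any sample. In bulk RNA, fewer cells of a type and less RNA per cell cannot be told apart.

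In HIF2-overexpressing duodenal organoids the D-type cyclins moved apart. Ccnd2 rose 3.47-fold and Ccnd1 fell to 0.551 of its Ad-GFP level, while the INK4 inhibitor Cdkn2c rose 2.89-fold and Cdkn2b fell to 0.571. Smaller changes were seen for Cdkn1b, which rose 1.41-fold, and Cdk6, which fell to 0.770. Of the 10 genes, 3 were called higher and 3 lower by edgeR (adjusted p below 0.05), against 15.9% of all 14987 genes tested called higher and 13.6% called lower. At the added threshold of a 2-fold increase 2 of the 10 remained, against 2.9% of all genes. In 7 of the 10 genes the Ad-hHIF2 and Ad-GFP samples did not overlap, against 45.8% of all genes. The median absolute log2 fold change of the 10 was 0.44, against 0.32 over all genes tested.

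**Figure D1:**
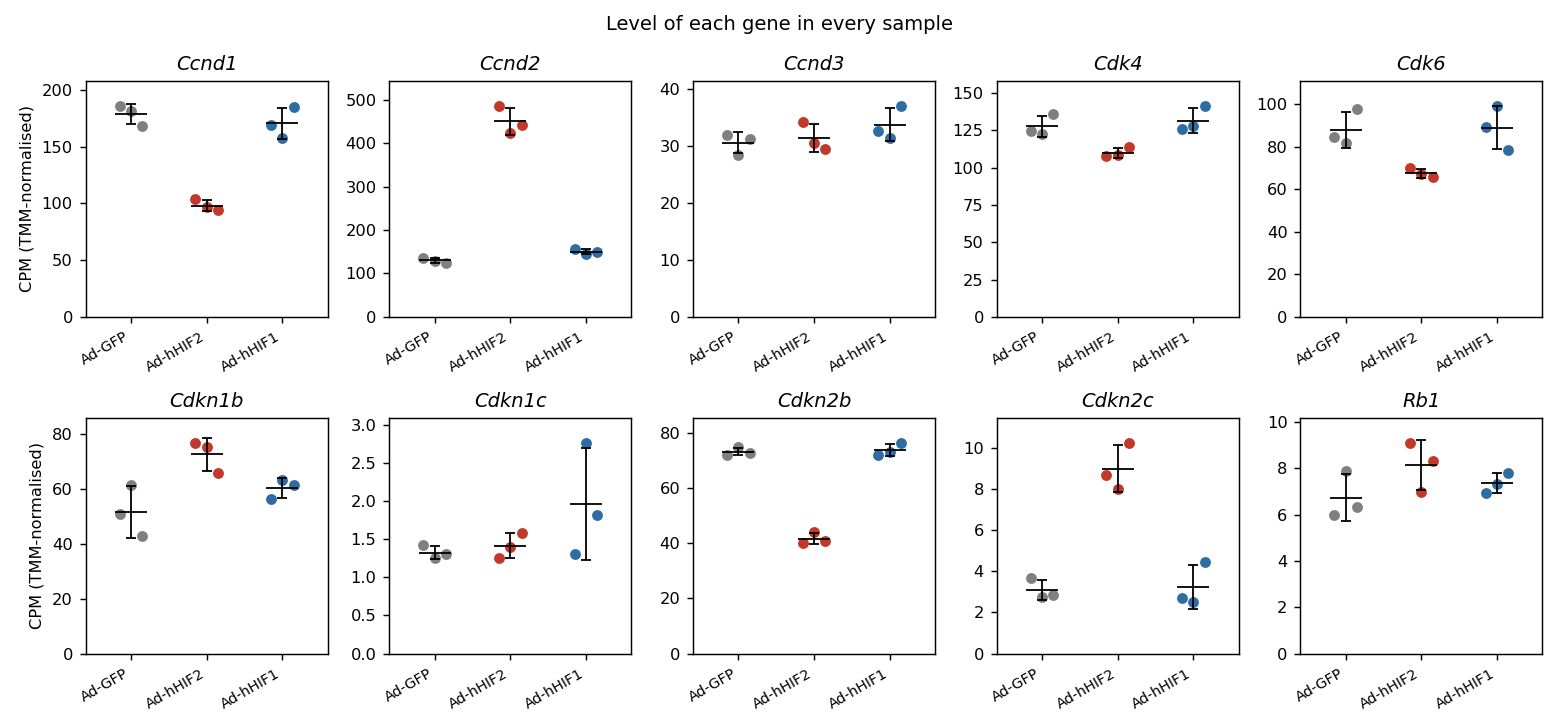
Level of each of the 10 genes in every sample, in TMM-normalised CPM on linear axes that start at 0. Points are samples, bars the mean and SD of 3 samples per group. In the Ad-hHIF2 group Ccnd2 and Cdkn2c lie above, and Ccnd1 and Cdkn2b below, all samples of both other groups.

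Ccnd1 encodes cyclin D1, a well-known Wnt and growth factor target (Ensembl ENSMUSG00000070348, minus strand of chr7:144929931-144939925 in GENCODE M21 on GRCm38). It was at 185.5, 181.5 and 168.5 CPM in the Ad-GFP samples, 103.5, 96.6 and 94.2 in the Ad-hHIF2 samples, and 168.7, 158.0 and 185.2 in the Ad-hHIF1 samples. The Ad-hHIF2 samples were the lowest of all, and the Ad-hHIF1 samples lay across the Ad-GFP range. Against Ad-GFP the Ad-hHIF2 log2 fold change was -0.86 (SE 0.0754, edgeR adjusted p = 8.98e-05). The call was lost on both TPM scales (limma adjusted p up to 0.492), where Ccnd1 relative to the median of all genes was at -0.45 on log2(TPM + 1) and -0.70 on log2(TPM + 0.1).

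Ccnd2 encodes cyclin D2 (ENSMUSG00000000184, minus strand of chr6:127125162-127152193). Its level was 136.4, 129.8 and 124.5 CPM with Ad-GFP, 484.6, 424.2 and 442.3 with Ad-hHIF2, and 156.5, 144.4 and 149.2 with Ad-hHIF1. All Ad-hHIF2 samples were far above the rest, and all Ad-hHIF1 samples were also above all Ad-GFP samples, by a much smaller margin. Against Ad-GFP the Ad-hHIF2 change was 1.79 on the log2 scale (SE 0.0842, edgeR adjusted p = 2.65e-06), higher than 98.8% of all genes tested. RP23-8L20.6, a gene on the opposite strand that overlaps Ccnd2 by 994 bases, also rose, from 5.78 to 20.4 CPM (log2 fold change 1.84, edgeR adjusted p = 0.000116). The strandedness of the libraries is not given in the sources used here, so reads in the shared stretch cannot be told apart.

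Ccnd3 encodes cyclin D3 (ENSMUSG00000034165, plus strand of chr17:47505051-47599691). Its values ran from 28.5 to 31.9 CPM with Ad-GFP, 29.5 to 34.1 with Ad-hHIF2 and 31.4 to 37.0 with Ad-hHIF1, so the groups overlapped. For Ad-hHIF2 the log2 fold change was 0.04, with a 95% interval from -0.14 to 0.23 (edgeR adjusted p = 0.719). At this precision a change of Ccnd3 as large as that of either other D-type cyclin falls outside the interval.

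To compare levels between genes, CPM were divided by the effective length in kilobases. On this scale Ccnd1 led the D-type cyclins in Ad-GFP organoids at 50.4 ± 3.23 (SD, n = 3), followed by Ccnd2 at 24.6 ± 1.22 and Ccnd3 at 16.9 ± 1.79. In Ad-hHIF2 organoids the order was Ccnd2 at 79.8 ± 6.96, Ccnd1 at 27.7 ± 1.27 and Ccnd3 at 18.4 ± 0.280. The share of Ccnd2 in the summed level of the D-type cyclins was 25.6 to 28.9% with Ad-GFP, 61.4 to 64.9% with Ad-hHIF2 and at most 30.4% with Ad-hHIF1. The share of Ccnd1 went the other way, from 52.4 to 57.1% with Ad-GFP to 21.3 to 23.5% with Ad-hHIF2, and was 49.2 to 51.4% with Ad-hHIF1, just below the Ad-GFP range. The Ccnd2 share was 36.5 percentage points higher with Ad-hHIF2 than with Ad-GFP without overlap, which in a two-sided exact permutation test gave p = 0.10, the smallest that 3 samples against 3 allow.

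The gain and the loss were unequal in size. The summed D-type cyclins were at 91.8 ± 4.01 CPM per kilobase with Ad-GFP, 126 ± 7.75 with Ad-hHIF2 and 95.2 ± 6.21 with Ad-hHIF1. The Ad-hHIF2 sum was 1.37 times the Ad-GFP sum, with no overlap between the groups (exact permutation p = 0.10), and 1.98 times on the deposited TPM (1.49 times without Ad-hHIF2 replicate 1). The Ad-hHIF1 sums overlapped those of Ad-GFP (exact permutation p = 0.60). The ratio of Ccnd2 to Ccnd1 was 0.455 to 0.551 with Ad-GFP, 2.62 to 3.04 with Ad-hHIF2 and 0.489 to 0.618 with Ad-hHIF1.

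**Figure D2:**
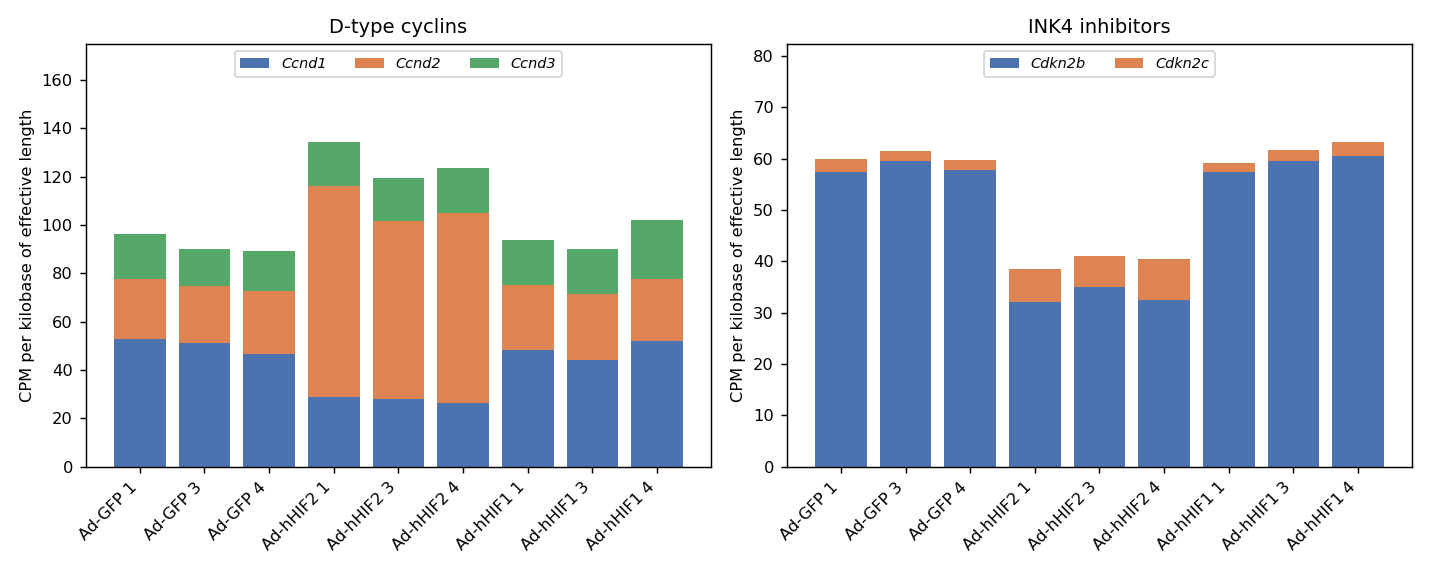
Stacked levels of the D-type cyclins (left) and of the INK4 inhibitors Cdkn2b and Cdkn2c (right) in each sample, in CPM per kilobase of effective length, with the virus and replicate number under each bar. Ccnd2 makes up 61.4 to 64.9% of the D-type cyclin bar in the Ad-hHIF2 samples and at most 30.4% elsewhere, and the Cdkn2b part of the right bars is shortest in the Ad-hHIF2 samples.

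Cdk4 was the most abundant of the 10 genes per kilobase in every group, at 130 ± 14.4 CPM per kilobase with Ad-GFP, 96.8 ± 6.30 with Ad-hHIF2 and 128 ± 10.2 with Ad-hHIF1. It encodes a catalytic partner of the D-type cyclins (ENSMUSG00000006728, plus strand of chr10:127063534-127067920). The counts gave 124.8, 122.7 and 135.7 CPM with Ad-GFP, 107.9, 108.2 and 114.0 with Ad-hHIF2, and 125.8, 127.7 and 141.1 with Ad-hHIF1. The Ad-hHIF2 samples were the lowest, yet the log2 fold change of -0.21 (SE 0.0760) against Ad-GFP missed the threshold (edgeR adjusted p = 0.0686). DESeq2, limma-voom, the robust fit and a stricter count filter each called it, with adjusted p-values down to 0.0365. Relative to the median of all genes it was at -0.19 on total counts, -0.08 on log2(TPM + 1) and -0.26 on log2(TPM + 0.1), where it was not called.

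Cdk6 encodes the other catalytic partner (ENSMUSG00000040274, plus strand of chr5:3341485-3531008). It was at 84.4, 81.6 and 97.7 CPM with Ad-GFP, 69.8, 67.1 and 65.6 with Ad-hHIF2, and 89.5, 99.0 and 78.5 with Ad-hHIF1. All Ad-hHIF2 samples were below all others, and the log2 fold change against Ad-GFP was -0.38 (SE 0.0865, edgeR adjusted p = 0.0121). The call was lost without Ad-hHIF2 replicate 4 (adjusted p = 0.0526) and on total counts and TPM scales, where Cdk6 relative to the median of all genes was at -0.35 on total counts, -0.17 on log2(TPM + 1) and -0.38 on log2(TPM + 0.1). Cdk4 exceeded Cdk6 per kilobase by a ratio of 8.33 to 9.56 with Ad-GFP, 9.29 to 10.3 with Ad-hHIF2 and 9.38 to 10.6 with Ad-hHIF1, with overlap between all groups. Before division by length, edgeR put Cdk4 at 0.864 and Cdk6 at 0.770 of the Ad-GFP level with Ad-hHIF2. RSEM's length of Cdk4 was 1071 to 1212 bases with Ad-GFP and 1229 to 1346 with Ad-hHIF2, which lowers its level per kilobase further. The sum of Cdk4 and Cdk6 per kilobase was 0.740 times the Ad-GFP sum with Ad-hHIF2 (no overlap, exact permutation p = 0.10). It was 1.06 times on the deposited TPM. The part of length in these ratios was not tested. One CPM per kilobase was worth 0.248 TPM in Ad-hHIF2 replicate 1 and 0.118 to 0.141 TPM in the other 8 samples, and without that sample the ratio on TPM was 0.827, an alternative chosen after seeing the data.

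Across all 10 genes the order per kilobase with Ad-GFP was Cdk4, Cdkn2b, Ccnd1, Ccnd2, Cdkn1b, Ccnd3, Cdk6, Cdkn2c, Rb1 and Cdkn1c, from 130 ± 14.4 down to 0.749 ± 0.0433 CPM per kilobase. The samples of neighbours overlapped from Ccnd2 through Cdkn1b and Ccnd3 to Cdk6, so the order inside that stretch is not resolved. With Ad-hHIF2 the order was Cdk4, Ccnd2, Cdkn2b, Cdkn1b, Ccnd1, Ccnd3, Cdk6, Cdkn2c, Rb1 and Cdkn1c, and the samples of Cdkn1b and Ccnd1 alone overlapped between neighbours. With Ad-hHIF1 the order of means was that of Ad-GFP.

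The RefSeq promoter table (GRCm38.p6) held windows for 6 of the 10 genes, 8 windows in all, and the 250 bases before each start were searched on both strands for the hypoxia response element cores ACGTG and GCGTG, with positions counted back from the start to the first printed base of a match. Ccnd1, Ccnd2, Cdkn1c and Rb1 were not in the table. Of the 8 windows 7 held a core, against 38.6% of 32851 windows of the same length. ACGTG was in 3 of them, against 16.6% of all windows. GCGTG was in a window each of Cdkn2b, Cdkn2c, Cdk6, Cdkn1b and Ccnd3, and, with or without ACGTG, in 28.2% of all windows. A match describes these letters only and says nothing of a bound factor.

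The Cdk4 window is shown because it is the densest of the 8. Capitals mark CACGTG, the E-box that Myc proteins bind, which holds ACGTG on both strands. It occurs 4 times, at -172, -118, -98 and -11 from the start. CACGTG occurs at least once in 6.02% of all windows and at least 4 times in 0.021%. The stretch is chr10:127063285-127063534, plus strand, 5′ to 3′:
Cdk4: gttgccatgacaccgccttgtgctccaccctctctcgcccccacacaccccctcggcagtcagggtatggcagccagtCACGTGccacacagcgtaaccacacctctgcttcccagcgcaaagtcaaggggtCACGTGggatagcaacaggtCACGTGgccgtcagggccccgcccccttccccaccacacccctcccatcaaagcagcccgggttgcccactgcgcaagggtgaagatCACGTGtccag

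The INK4 inhibitors moved in opposite directions in HIF2-overexpressing organoids. Cdkn2b encodes p15, known as a target of TGF-β signalling, which SB431542 blocks in every group here (ENSMUSG00000073802, minus strand of chr4:89306299-89311039). It was at 71.97, 74.6 and 72.7 CPM with Ad-GFP, 40.2, 43.9 and 40.9 with Ad-hHIF2, and 71.8, 73.0 and 76.2 with Ad-hHIF1. The Ad-hHIF2 values stood apart below all others, and the other groups coincided. With Ad-hHIF2 the log2 fold change was -0.81 (SE 0.0692, edgeR adjusted p = 7.82e-05). This call too was lost on both TPM scales (limma adjusted p up to 0.550), at -0.42 on log2(TPM + 1) and -0.65 on log2(TPM + 0.1) relative to the median of all genes.

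Cdkn2c encodes p18 (ENSMUSG00000028551, minus strand of chr4:109660876-109667189). Its level was 3.66, 2.77 and 2.85 CPM with Ad-GFP, 8.69, 8.01 and 10.2 with Ad-hHIF2, and 2.71, 2.50 and 4.45 with Ad-hHIF1. Every Ad-hHIF2 sample exceeded every other sample. The log2 fold change of 1.53 (SE 0.165, edgeR adjusted p = 0.000281) was higher than 98.4% of all genes tested and rested on 316 to 408 counts per Ad-hHIF2 sample and 57 to 134 per Ad-GFP sample. On log2(TPM + 1) it was 0.77, still called (limma adjusted p = 0.00180).

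Cdkn2b stayed the larger of the pair. Per kilobase it was at 58.3 ± 1.06 with Ad-GFP and 33.2 ± 1.59 with Ad-hHIF2, and Cdkn2c was at 2.14 ± 0.263 and 6.83 ± 0.933. The ratio of Cdkn2b to Cdkn2c therefore went from 23.5 to 29.7 with Ad-GFP to 4.13 to 5.75 with Ad-hHIF2, and was 28.2 ± 6.52 with Ad-hHIF1. The sum of Cdkn2b and Cdkn2c was 60.4 ± 0.952 with Ad-GFP, 40.0 ± 1.33 with Ad-hHIF2 and 61.4 ± 2.16 with Ad-hHIF1. With Ad-hHIF2 it was 0.662 times the Ad-GFP sum without overlap (exact permutation p = 0.10), and 0.937 times on the deposited TPM (0.757 times without Ad-hHIF2 replicate 1). This sum leaves out the other INK4 genes. Cdkn2a, which encodes p16 and, in another reading frame, Arf, was at 97.3 ± 22.4 CPM per kilobase with Ad-GFP, 101 ± 12.9 with Ad-hHIF2 and 116 ± 7.84 with Ad-hHIF1 (log2 fold change with Ad-hHIF2 0.06, edgeR adjusted p = 0.817). Cdkn2d, the gene for p19, was at 3.44 ± 1.15, 4.05 ± 0.776 and 3.10 ± 1.21 (0.22, adjusted p = 0.556). With both included the sums of Ad-GFP and Ad-hHIF2 overlapped at 0.901 times (exact permutation p = 0.30).

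The promoter stretches of both INK4 genes are shown since these neighbours in function moved apart. Capitals mark ACGTG or GCGTG on either strand. For Cdkn2b a single GCGTG lies 9 bases before the start, in chr4:89311033-89311282, minus strand, 5′ to 3′:
Cdkn2b: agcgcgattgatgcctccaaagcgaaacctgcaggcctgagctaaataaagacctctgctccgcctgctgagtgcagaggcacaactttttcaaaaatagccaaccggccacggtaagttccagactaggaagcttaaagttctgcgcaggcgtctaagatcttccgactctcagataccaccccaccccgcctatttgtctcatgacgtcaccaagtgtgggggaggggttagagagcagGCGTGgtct

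GENCODE M21 lists a Cdkn2c transcript of 2471 bases in 3 exons and one of 1106 bases in 2 exons with its own start inside the gene, at chr4:109665372. The window before that inner start, chr4:109665373-109665622 on the minus strand, holds ACGTG at -123 and, on the opposite strand, at -100. The outer Cdkn2c window, chr4:109666757-109667006, holds a single GCGTG at -44 from its RefSeq start. That window lies inside the GENCODE transcript of 2471 bases, which starts at chr4:109667189. The inner window reads 5′ to 3′:
Cdkn2c: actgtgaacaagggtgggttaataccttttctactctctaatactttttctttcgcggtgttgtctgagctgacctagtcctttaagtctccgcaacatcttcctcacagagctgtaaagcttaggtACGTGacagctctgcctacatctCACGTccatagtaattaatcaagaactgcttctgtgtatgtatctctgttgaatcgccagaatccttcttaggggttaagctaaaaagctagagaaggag

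RSEM's length of a gene is the mean of its transcripts weighted by their estimated abundance, over the annotation the authors used, which the sources used here do not name. For Cdkn2c it was 1495 to 1640 bases with Ad-GFP, 1434 to 1468 with Ad-hHIF2 and 1328 to 1791 with Ad-hHIF1. The Ad-hHIF2 lengths were below all Ad-GFP lengths and inside the wide Ad-hHIF1 range. These lengths are a description only, as 57 counts in a sample give a weak estimate, and the transcripts behind them may differ from those of GENCODE M21. For Cdkn2b the deposited length was 1393 bases in every sample, against 1390 for its 1 transcript in GENCODE M21.

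Among the CIP/KIP inhibitors, Cdkn1b, the gene for p27 (ENSMUSG00000003031, plus strand of chr6:134920401-134925513), rose. It was at 50.8, 61.4 and 42.7 CPM with Ad-GFP, 76.7, 75.4 and 65.6 with Ad-hHIF2, and 56.3, 63.2 and 61.5 with Ad-hHIF1. All Ad-hHIF2 samples lay above all samples of both other groups, though the Ad-GFP samples were widely spread. With Ad-hHIF2 the log2 fold change was 0.49 (SE 0.126, edgeR adjusted p = 0.0186). The call was lost without Ad-GFP replicate 1, without Ad-hHIF2 replicate 1 and without Ad-hHIF2 replicate 3, with log2 fold changes of 0.47 to 0.48 and adjusted p-values up to 0.0616. It was also lost on both TPM scales, at 0.64 and 0.65 relative to the median of all genes.

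Cdkn1c, the imprinted gene for p57 (ENSMUSG00000037664, minus strand of chr7:143458339-143461050), was the rarest of the 10. It was at 1.25 to 1.42 CPM with Ad-GFP, 1.26 to 1.59 with Ad-hHIF2, and 1.31, 2.76 and 1.82 with Ad-hHIF1. The highest value was in Ad-hHIF1 replicate 3, and all groups overlapped. For Ad-hHIF2 the log2 fold change was 0.09, with a 95% interval from -0.54 to 0.72 (edgeR adjusted p = 0.828). The sum of Cdkn1b and Cdkn1c, which leaves out Cdkn1a, was 21.4 ± 2.79 CPM per kilobase with Ad-GFP, 30.4 ± 2.99 with Ad-hHIF2 and 25.4 ± 1.67 with Ad-hHIF1, nearly all of it Cdkn1b, and the Ad-hHIF2 samples lay above the Ad-GFP samples (ratio 1.42, exact permutation p = 0.10). With Cdkn1a the ratio was 1.64, again without overlap. Cdkn1b, Cdkn1c, Cdkn2b and Cdkn2c together came to 0.835 to 0.958 of the summed D-type cyclins with Ad-GFP, 0.524 to 0.613 with Ad-hHIF2 and 0.882 to 0.972 with Ad-hHIF1, with Ad-hHIF2 apart from both (exact permutation p = 0.10 against each). With Cdkn1a, Cdkn2a and Cdkn2d added, the same ratio was 1.92 to 2.39 with Ad-GFP, 1.55 to 1.80 with Ad-hHIF2 and 2.37 to 2.47 with Ad-hHIF1, with Ad-hHIF2 again apart from both.

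Rb1 encodes the retinoblastoma protein (ENSMUSG00000022105, minus strand of chr14:73183673-73325822). Its level was 5.98, 7.90 and 6.35 CPM with Ad-GFP, 9.10, 6.97 and 8.34 with Ad-hHIF2, and 6.95, 7.31 and 7.83 with Ad-hHIF1. The groups overlapped, and the log2 fold change for Ad-hHIF2 was 0.27 with a 95% interval from -0.07 to 0.61 (edgeR adjusted p = 0.212). Of the 11 alternatives, scaling by total counts called Rb1 (log2 fold change 0.54, adjusted p = 0.0424), where it was at 0.30 relative to the median of all genes.

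Of the 10 genes, 7 overlap a gene on the opposite strand in GENCODE M21. Apart from RP23-8L20.6 above, the called neighbour was Bysl on the other strand of Ccnd3, which fell from 11.1 to 6.25 CPM (log2 fold change -0.81, edgeR adjusted p = 0.00694) over a shared stretch of 361 bases. Oraov1 beside Ccnd1 and Tspan31 beside Cdk4 were at log2 fold changes of 0.54 and 0.17, with edgeR adjusted p-values of 0.0760 and 0.213. Lpar6 and Rcbtb2, which share 5400 and 24171 bases with Rb1, were at 0.57 and 0.53 (edgeR adjusted p = 0.0644 and 0.0836). RP23-454P8.1, which shares 8013 bases with Cdk6, was at -0.71 (edgeR adjusted p = 0.275). The part of these neighbours in the members' values was not tested. Expected counts, as deposited and with no tolerance, were whole numbers in all 9 samples for Cdkn1b, Cdkn1c, Cdkn2b and Cdkn2c. Those of Rb1 were whole in 7 samples and those of Ccnd2 in 1, and those of Ccnd1, Ccnd3, Cdk4 and Cdk6 in none, which shows that RSEM split some reads between these and further genes.

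With Ad-hHIF1 none of the 10 genes was called, and edgeR's smallest adjusted p among them was 0.549. Over all 15233 genes tested the share called was 0%. At an unadjusted p below 0.05 there was 1 of the 10, Ccnd2, against 8.59% of all genes, and 1 of the 10 had groups that did not overlap, against 17.4%. Ccnd2 was at a log2 fold change of 0.20, with a 95% interval from 0.03 to 0.38. The intervals for Ccnd1 (-0.27 to 0.14), Cdkn2b (-0.14 to 0.16) and Cdkn2c (-0.60 to 0.72) each left out the change seen with Ad-hHIF2. No other setting tried called any of the 10, among them DESeq2 and limma-voom, which called 144 and 5 genes in all.

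**Figure D3:**
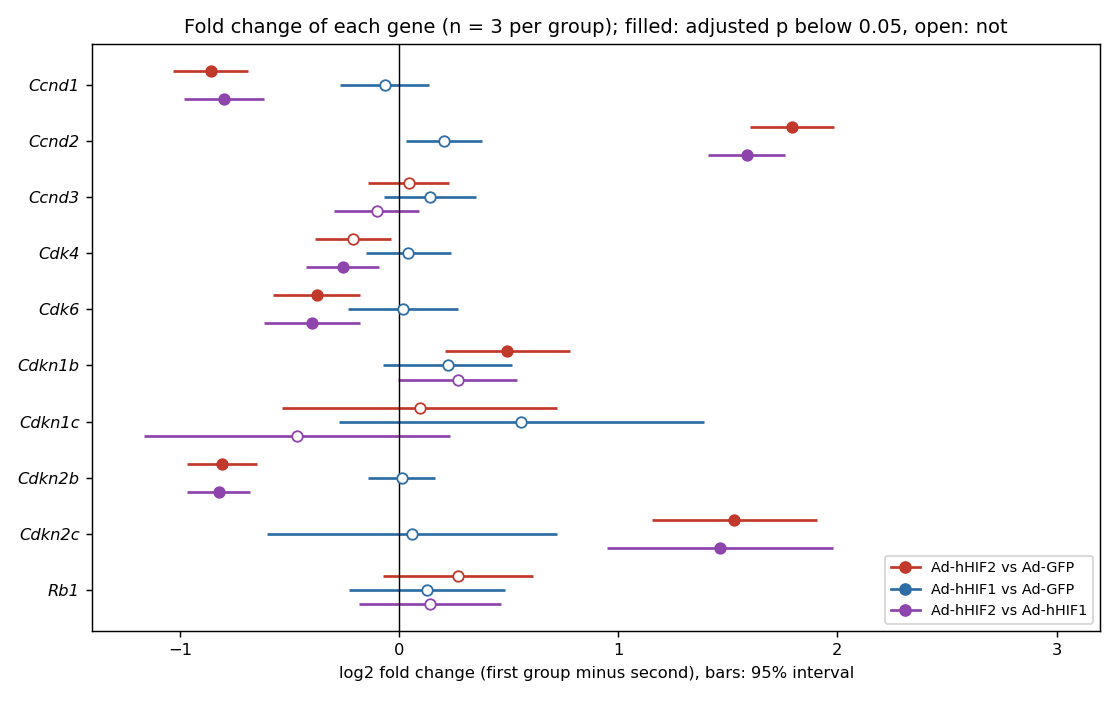
Log2 fold change of each of the 10 genes in the 3 comparisons with its 95% interval. Filled points have an edgeR adjusted p below 0.05, open points do not. Red (Ad-hHIF2 against Ad-GFP) and purple (Ad-hHIF2 against Ad-hHIF1) lie close to each other for Ccnd1, Ccnd2, Cdkn2b and Cdkn2c. For these genes blue (Ad-hHIF1 against Ad-GFP) lies between -0.06 for Ccnd1 and 0.20 for Ccnd2. Blue is farthest from 0 for Cdkn1c, at 0.56 with an interval from -0.275 to 1.39.

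Ad-hHIF2 and Ad-hHIF1 samples were also set against each other. Of the 10 genes, 2 were higher and 4 lower with Ad-hHIF2 than with Ad-hHIF1, against 13.7% and 12% of 15556 genes, and 7 did not overlap, against 41.8%. Ccnd2 was higher by 1.59 on the log2 scale (SE 0.0799, edgeR adjusted p = 5.67e-07) and Cdkn2c by 1.47 (SE 0.231, adjusted p = 0.00121). Ccnd1 stood at -0.80 (adjusted p = 7.43e-05) and Cdkn2b at -0.82 (adjusted p = 1.05e-05). Cdk4 at -0.26 (adjusted p = 0.0290) and Cdk6 at -0.40 (adjusted p = 0.0142) also passed edgeR's test. The Cdk4 call was lost without any one of the Ad-hHIF2 samples (adjusted p from 0.0639 to 0.106) and without Ad-hHIF1 replicate 4 (0.117), and the Cdk6 call without Ad-hHIF2 replicate 4 (0.0568). Both calls were also lost on total counts and both TPM scales, and that of Cdk4 without a count filter (0.142). Cdkn1b, although called against Ad-GFP, did not differ between the HIFs at the threshold (0.27, 95% interval from -0.01 to 0.54, adjusted p = 0.140), though the fit without a count filter called it (adjusted p = 0.0350). The 3 comparisons share samples, so their values are not independent. The part of transgene level in the differences between the HIFs was not tested.

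The partners of the switch were followed in 35 other G1/S genes, all tested. With Ad-hHIF2 4 rose (11.4%, against 15.9% of all genes) and 5 fell (14.3%, against 13.6%), shares near those of all genes, and the median log2 fold change was -0.04, against -0.01 over all genes. The strongest fall was in Ccna2, cyclin A2 (4.81 to 2.35 CPM, log2 fold change -1.02, edgeR adjusted p = 0.0147), and in Cks1b, a CDK-binding subunit that helps degrade p27 (30.2 to 15.1 CPM, -0.996, 4.17e-05). The Ccna2 call was lost without Ad-hHIF2 replicate 3 (adjusted p = 0.0569). Cdkn1a, the gene for the CIP/KIP inhibitor p21, was at 28.5 to 33.4 CPM with Ad-GFP, 53.9 to 61.0 with Ad-hHIF2 and 38.3 to 41.3 with Ad-hHIF1, with no overlap between any groups. Its log2 fold change with Ad-hHIF2 was 0.93 (SE 0.0884, edgeR adjusted p = 0.000142), and with Ad-hHIF1 it was 0.41 (adjusted p = 0.486), where DESeq2 and the fit without a count filter called it.

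The pocket proteins related to Rb1 rose, Rbl2 (p130) by 0.56 and Rbl1 (p107) by 0.50 on the log2 scale (edgeR adjusted p = 0.00665 and 0.0121). Gsk3b, whose kinase marks cyclin D1 for degradation, rose by 0.29 (adjusted p = 0.0195). Mnat1, an assembly factor of the CDK-activating kinase, fell by 0.41 (adjusted p = 0.00523), Tfdp1, an E2F partner, fell by 0.27 (adjusted p = 0.0273), and E2f5 fell by 0.31 (adjusted p = 0.0433). The Tfdp1 call was lost without Ad-GFP replicate 3 or any Ad-hHIF2 sample (adjusted p up to 0.113), and the Gsk3b call without Ad-GFP replicate 1 or 3 or Ad-hHIF2 replicate 1 or 4 (up to 0.0703). The cyclin E arm was not called: Cdk2 was at -0.01, Ccne1 at -0.26 and Ccne2 at -0.34, with edgeR adjusted p-values of 0.976, 0.396 and 0.0843.

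E2f1 was not called with Ad-hHIF2 (log2 fold change -0.31, edgeR adjusted p = 0.325) and spread widely with Ad-hHIF1, at 9.72, 23.9 and 4.88 CPM against 4.76 to 7.45 with Ad-GFP. The highest value was in Ad-hHIF1 replicate 3, the library in which the satellite-like genes Gm10800 and Gm26870 held 16% of the counts, against 0.433 to 4.28% elsewhere. Their part in this value was not tested. Tyms (thymidylate synthase) had the same order of samples, at 90.7, 196.6 and 41.1 CPM with Ad-hHIF1. Without replicate 3 the log2 fold change for Ad-hHIF1 went from 1.04 to 0.25 for E2f1 and from 0.77 to 0.04 for Tyms, and edgeR called neither value.

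Among 26 S phase genes that E2F factors are known to regulate, 3 rose (11.5%, against 15.9% of all genes) and 6 fell (23.1%, against 13.6%) with Ad-hHIF2, and the median log2 fold change was -0.28. The genes that fell included Tyms (-1.03, edgeR adjusted p = 0.00530), Tk1, thymidine kinase (-0.98, 0.000941), Pola1, a DNA polymerase α subunit (-0.69, 0.0108), Pcna, the polymerase clamp (-0.51, 0.00629), and the helicase subunits Mcm2 (-0.31, 0.00680) and Mcm6 (-0.32, 0.0131). The genes that rose were Rrm2 (0.79, 0.00418) and Rrm1 (0.39, 0.00736), the subunits of ribonucleotide reductase, and Lig1, DNA ligase I (0.76, 0.00109). The Tyms call was lost in the fit of all 9 samples (-1.03, adjusted p = 0.117). Genes of nucleotide supply were thus found in both directions.

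**Figure D4:**
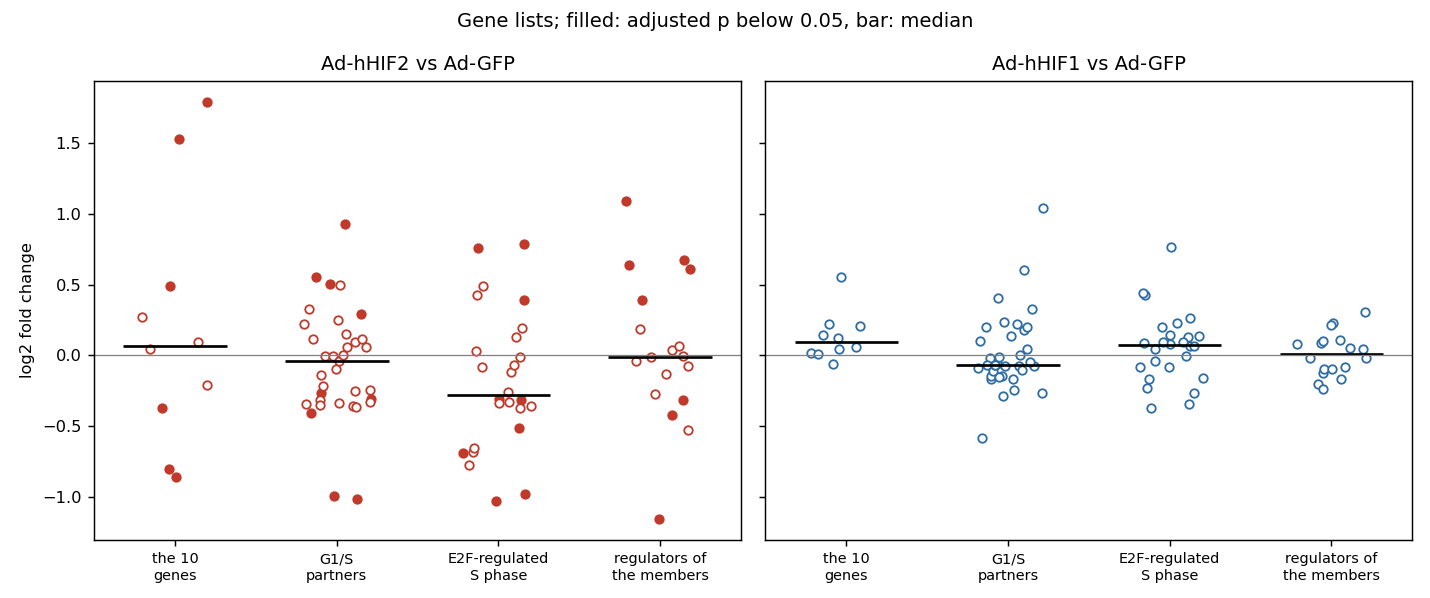
Log2 fold change of the 10 genes and of 3 gene lists with Ad-hHIF2 (left) and Ad-hHIF1 (right), each against Ad-GFP. Points are genes, filled at an edgeR adjusted p below 0.05, and bars are medians. On the left the 26 S phase genes have the lowest median, at -0.28, and on the right no point is filled.

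Of 18 known transcriptional regulators of the 10 genes, 5 rose (27.8%, against 15.9% of all genes) and 3 fell (16.7%, against 13.6%) with Ad-hHIF2, with a median log2 fold change of -0.01. Myc, which is known to activate Ccnd2 and Cdk4 and to repress Cdkn2b, fell from 143.0 to 148.0 CPM with Ad-GFP to 56.7 to 69.9 with Ad-hHIF2 (log2 fold change -1.16, edgeR adjusted p = 5.32e-05). It was at 132.4 to 137.3 CPM with Ad-hHIF1. Of the FoxO factors, which are known to activate Cdkn1b, Foxo1 rose by 1.10 (adjusted p = 7.53e-05) and Foxo4 by 0.61 (0.00703), while Foxo3 fell by 0.42 (0.00624). Ctnnb1, the gene for β-catenin, rose by 0.67 (0.000428), its DNA-binding partner Tcf7l2 by 0.64 (0.0149) and Stat3 by 0.39 (0.00534), whereas Jun fell by 0.32 (0.0249). Of the 24 calls among the 28 genes named from the 3 lists by the naming rule, those of Cdkn1a and Foxo1 held on both TPM scales and the other 22 were lost, as were 7 on total counts, those of Jun and Tyms in the fit of all 9 samples and that of Tfdp1 without a count filter. Without Ad-hHIF2 replicate 1 the TPM scales kept 8, those of Cdkn1a, Cks1b, Ctnnb1, Foxo1, Foxo4, Lig1, Myc and Rrm2. The Jun call was lost without Ad-GFP replicate 1 or any Ad-hHIF2 sample (adjusted p up to 0.0933), and the Tcf7l2 call without Ad-GFP replicate 3 or Ad-hHIF2 replicate 4 (up to 0.0589). The TGF-β effectors Smad2, Smad3 and Smad4 were at log2 fold changes between -0.08 and 0.04 and were not called. With Ad-hHIF1 no gene of the 3 lists was called by edgeR with its count filter, and 1 of each list was below an unadjusted p of 0.05. Of the 28 named genes, the fit without that filter called Cdkn1a (0.40, adjusted p = 0.0229), E2f1 (1.03, 4.27e-07) and Tyms (0.75, 4.52e-09) higher with Ad-hHIF1, and DESeq2 called Cdkn1a (0.41, 0.0140). The unfiltered fit called 384 genes in all, against 0 with the filter. For E2f1 and Tyms the Ad-hHIF1 and Ad-GFP samples overlapped. With the filter and without Ad-hHIF1 replicate 3 they were at 0.25 and 0.04.

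The genes whose pattern over the 9 samples was most like that of Ccnd2 were Spns2, Gcnt1, Cyp2s1, Kbtbd11 and Ctnnd1, with Pearson correlations of log2 CPM between 0.9966 and 0.9982 among 14723 genes. The 9 samples fall into groups, and this likeness is mainly the shared step between Ad-hHIF2 and the rest. Cyp2s1 was at a mean of 133.2 CPM with Ad-GFP, 464.8 with Ad-hHIF2 and 150.4 with Ad-hHIF1, close to the 130.2, 450.4 and 150.0 CPM of Ccnd2.

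Markers of other cell types were low throughout. The summed level of 5 immune markers was 2.55 to 4.43 CPM with Ad-GFP, 1.51 to 1.84 with Ad-hHIF2 and 1.64 to 3.98 with Ad-hHIF1, and 1 of the 2 that passed the filter, Ptprc, was called lower with Ad-hHIF2. The 7 mesenchymal markers summed to 12.6 to 18.3, 9.81 to 13.0 and 9.92 to 19.8 CPM and the 4 endothelial markers to 1.60 to 3.12, 1.02 to 1.71 and 1.84 to 2.71, with none called of the 6 and 1 that passed the filter. None of these markers was at 0 in all 9 samples. Among the epithelial markers Cdh1 was called higher and Epcam lower with Ad-hHIF2. The part of cell composition in the values above was not tested.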

How the data were processed

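Expected counts were estimated by the authors with RSEM from quality-filtered reads of each organoid culture and are not normalised. The deposited TPM come from the same RSEM run and served only as alternatives. The aligner, genome build, annotation, strandedness and RSEM version are not given in the sources used here. EBSeq, the test of the authors, played no role here.

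The rounded counts were filtered with filterByExpr, normalised by TMM and tested by quasi-likelihood in edgeR 4.0.16 under R 4.3.3, alongside limma 3.58.1. The 6 samples of a HIF and Ad-GFP formed one fit, and all 9 samples entered the fit for Ad-hHIF2 against Ad-hHIF1. Benjamini-Hochberg adjustment ran over all genes tested. CPM used TMM factors over all 9 samples, and levels between genes used CPM per kilobase of RSEM effective length. Standard errors and 95% intervals came from the quasi-likelihood F statistic. Summed levels and shares were compared by two-sided exact permutation tests.

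The members and the gene lists were chosen with earlier results of these data known. Genes named from a list were up to 8 with the smallest adjusted p below 0.05 for Ad-hHIF2 against Ad-GFP, together with Cdk2, Ccne1, Ccne2, E2f1, Rbl1, Rbl2, Cdkn1a and Myc. The 5 genes most like Ccnd2 were chosen by correlation of log2(CPM + 0.5). E2f5, Mcm6, Cdkn2a, Cdkn2d, the Smad genes and the genes overlapping a member were named outside this rule after their values were seen. Against counting noise alone, sample pairs within a group had a chi-square of at least 25.8 per degree of freedom. Counting noise leaves out differences between separate cultures, so this value says nothing of their quality. The alternatives covered the count filter (none, or a minimum of 10 counts per sample), the scaling (median-ratio factors or library totals), the tool (DESeq2 1.42.0, limma-voom, a robust fit), limma on log2(TPM + 1) and log2(TPM + 0.1), the sample set, a replicate block and leaving out each sample. TPM values without Ad-hHIF2 replicate 1 and wider inhibitor sums were added after seeing the data. The edgeR, DESeq2, limma-voom and TPM fits were also run on simulated data. Those counts were drawn from means and dispersions that edgeR fitted to these samples, and TPM were rebuilt from the drawn counts. The simulation therefore cannot show the deviating TPM of Ad-hHIF2 replicate 1, and no result rests on it. Gene positions are those of GENCODE M21 (GRCm38), matched by Ensembl identifier, and promoter sequences those of RefSeq (GRCm38.p6).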

Additional observations from a re-analysis of the deposited data

Results flagged for a closer look

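The effect of Ad-hHIF2 differed from that of Ad-hHIF1 by the direct test (edgeR, all 9 samples) for 6 of the 10 genes, where 13.7% of all genes tested were called higher and 12% lower. Epas1 was at 604.3 to 757.5 CPM with Ad-hHIF2, against 1.47 to 2.20 with Ad-GFP. Hif1a was at 299.3 to 319.2 CPM with Ad-hHIF1, against 197.6 to 251.2 with Ad-GFP. The part of transgene level in the difference between the HIFs was not tested. On the log2 scale Ad-hHIF2 minus Ad-hHIF1 was 1.59 for Ccnd2, 1.47 for Cdkn2c, -0.82 for Cdkn2b, -0.80 for Ccnd1, -0.40 for Cdk6 and -0.26 for Cdk4. In each of these genes all 3 Ad-hHIF2 samples lay on one side of all 3 Ad-hHIF1 samples, as in 41.8% of all genes.

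Of the 28 genes named from the lists, 19 also differed between the HIFs. Most were named for their p against Ad-GFP, and the direct test uses the same Ad-hHIF2 samples, so this count is set in part by that choice. Over all 79 genes of the lists 25 were called (31.6%, against 25.8% of all genes). Higher with Ad-hHIF2 were Tcf7l2 (0.88), Foxo1 (0.86), Rrm2 (0.83), Lig1 (0.76), Foxo4 (0.70), Ctnnb1 (0.57), Cdkn1a (0.52), Rbl2 (0.35) and Stat3 (0.34). Lower were Tyms (-1.80), Myc (-1.04), Ccna2 (-0.95), Cks1b (-0.93), Tk1 (-0.65), Pola1 (-0.54), Pcna (-0.44), Mcm2 (-0.38), Mnat1 (-0.36) and Tfdp1 (-0.26). For Tyms, Ad-hHIF1 replicate 3 was at 196.6 CPM, and without it the difference was -1.08 (adjusted p = 0.0305), while without Ad-hHIF2 replicate 1 the call was lost (0.0664). With 1 sample left out at a time, calls were also lost for Rbl2 (7 samples, adjusted p up to 0.101), Pola1 (5 samples, up to 0.0817), Foxo4 (4 samples, up to 0.0721), Tfdp1 (4 samples, up to 0.0743), Ccna2 (3 samples, up to 0.0647) and Lig1 (Ad-hHIF2 replicate 1, 0.0503), as they were for Cdk4 (4 samples, up to 0.117) and Cdk6 (Ad-hHIF2 replicate 4, 0.0568). None of the 19 calls held on either TPM scale, 5 held there without Ad-hHIF2 replicate 1 (Cdkn1a, Cks1b, Foxo1, Myc and Pcna), and 12 held on total counts. The Tyms call was also lost in the robust fit (0.0685) and the Tfdp1 call without a count filter (0.147). Beyond the 19, E2f1 (-1.36, edgeR adjusted p = 0.0555) was called lower without a count filter, with the stricter filter and on total counts (adjusted p up to 0.0416). Without Ad-hHIF1 replicate 3 E2f1 was at -0.57 (edgeR adjusted p = 0.217), and without Ad-hHIF1 replicate 4 it was called at -1.75 (0.00626). Gsk3b was called higher by DESeq2, limma-voom and the robust fit (0.23 to 0.24). Without Ad-hHIF1 replicate 1 edgeR called Gsk3b higher (0.29, adjusted p = 0.0408) and Jun lower (-0.36, 0.0385). Foxo3 was called lower without Ad-hHIF1 replicate 3 (-0.33, edgeR adjusted p = 0.0238). Groups of 3 samples were not searched for single deviating samples.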

How the results depend on the processing

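Ccnd2 and Cdkn2c were called with Ad-hHIF2 against Ad-GFP under all 11 alternatives and in all 6 fits with a sample left out, Cdkn2c at log2 fold changes from 0.77 on log2(TPM + 1) to 1.79 on total counts, against 1.53. Ccnd1 and Cdkn2b were called in all but the 2 TPM fits. Without Ad-hHIF2 replicate 1, whose TPM stand apart (chosen after seeing the data), each TPM scale called 4 members in both comparisons, Ccnd1, Ccnd2, Cdkn2b and Cdkn2c, with calls over all genes of 1425 and 1292 against Ad-GFP and 1475 and 1369 against Ad-hHIF1. Members called numbered 6, and 2 on either TPM scale, where calls over all genes went from 4416 to 1010 (log2(TPM + 1)) and 1109 (log2(TPM + 0.1)). Against Ad-hHIF1 they numbered 6, and again 2 on either TPM scale, with calls over all genes going from 4008 to 367 and 460. With a sample left out, 5 to 6 and 4 to 6 members were called, and the direct comparison called 2594 to 4335 genes, the lowest without Ad-hHIF2 replicate 1. With Ad-hHIF1 no member was called in any setting, while genes called were 384 without a filter, 144 with DESeq2, 5 with limma-voom and 7 each with all 9 samples and the robust fit.

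In Ad-hHIF2 against Ad-GFP the median of all genes was 0.24 on total counts and 0.30 on log2(TPM + 0.1), and calls split into 3491 higher and 828 lower on total counts, against 2381 and 2035 with TMM, and into 814 and 196 or 899 and 210 on the TPM scales. As fitted Cdk4 was at 0.05 on total counts and 0.04 on both TPM scales. On log2(TPM + 1) and log2(TPM + 0.1) positive values as fitted were also found for Ccne1 (0.03 and 0.08), E2f1 (0.03 and 0.10), Tfdp1 (0.14 and 0.17), Mcm2 (0.03 and 0.02), Foxo3 (0.03 in both) and Jun (0.09 and 0.13). On log2(TPM + 0.1), where the median of all genes was 0.30, these were below it, from -0.13 for Tfdp1 to -0.28 for Mcm2, while on log2(TPM + 1), with a median of 0.12, Tfdp1 was above it by 0.02, Jun was at -0.03 and the other 4 were at -0.09. Cdk2, near 0, took 0.02 without a filter, 0.27 on total counts, 0.18 and 0.36 on TPM, and -0.07 to 0.13 with a sample left out, and Ccnd3 fell to -0.01 without Ad-GFP replicate 3. For Ad-hHIF1 against Ad-GFP, Ccnd1 took 0.02 on total counts and 0.10 and 0.11 on TPM. With a sample left out Cdk6 took -0.06 to 0.10, Cdkn2c -0.26 to 0.21, Cdk4 -0.02 to 0.09 and Cdkn2b -0.02 to 0.03. In the direct comparison Ccnd3 took 0.09 on total counts and 0.11 and 0.13 on TPM, Foxo3 and Jun 0.05 on both TPM scales, and Tfdp1 0.01 on log2(TPM + 1), while on the TPM scales without Ad-hHIF2 replicate 1 Rbl2 took -0.03 and -0.05 and Stat3 -0.09 and -0.11 and Cdk2 took 0.02 and 0.04 against Ad-GFP. The cause of these changes of sign was not tested.

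The Ccnd2 share moved from 36.5 to 39.3 percentage points without length scaling. On the deposited TPM the ratio of Ad-hHIF2 to Ad-GFP was 1.98 for the summed D-type cyclins, 1.06 for CDK4 and CDK6, 0.937 for INK4 and 2.04 for CIP/KIP, and without Ad-hHIF2 replicate 1 it was 1.49, 0.827, 0.757 and 1.54. Added after seeing the data, Cdkn2a and Cdkn2d took the INK4 ratio from 0.662 to 0.901 and Cdkn1a took the CIP/KIP ratio from 1.42 to 1.64. Deviations from the group means correlated at 0.086 to 0.214 between samples of one number in Ad-hHIF2 and Ad-GFP. The same correlations were -0.131 to 0.153 in Ad-hHIF1 and Ad-GFP, and -0.25 to -0.089 in Ad-hHIF2 and Ad-hHIF1. Not every sample correlated best with its own number, and the numbers were not taken to pair samples. With the replicate block 6, 0 and 6 members and 4631, 0 and 3638 genes were called in the 3 comparisons.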
